A study of Mus musculus with 6 samples.

Results

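Messenger RNA of 38 genes that control apoptosis, necroptosis and pyroptosis was described in 6 bulk RNA-seq libraries from mouse liver. The genes were taken by symbol from a named list that covers the BCL2 family, caspases, death receptors, inhibitors of apoptosis, RIPK genes and the inflammasome. All 38 were present among the 22599 genes of the count table, and all 38 passed the filter on low counts together with 13205 genes in all. The tested livers, called NcoR1ΔHep here (n = 3), carry the genotype label of an NcoR1 knockdown, and the housing notes describe the line as NcoR1ΔHep mice. Their controls, called flox (n = 3), are labelled wild type and come from NcoR1fl/fl mice. Titles give 0 h for all 6 libraries, while the treatment label names liver ischemia-reperfusion for all 6, so whether the livers were operated on is not known. The series title describes a hepatic deletion, and cells of other types in a liver would keep the gene. The labels used here name no Cre driver, sex, age or number of animals per library. Nothing states that libraries came from separate mice, and p-values measure only the spread between these libraries.

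Apoptosis through mitochondria is set by the BCL2 family. BH3-only proteins sense damage and bind the guardian proteins BCL2, BCL-XL, BCL-W and MCL1, which otherwise hold BAX and BAK in check. Free BAX and BAK open the outer mitochondrial membrane, cytochrome c escapes and assembles APAF1 and caspase-9 into the apoptosome. Death receptors such as FAS and the TNF receptor instead activate caspase-8, and FAS engagement is a classical cause of hepatocyte death. Where caspase-8 is blocked, RIPK1, RIPK3 and MLKL can carry out necroptosis, whereas caspase-1, caspase-11 (the product of Casp4 in mouse) and gasdermin D carry out pyroptosis. The series title names NF-kB p65, a factor known to induce several inhibitors of death.

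The libraries held 36975231 to 38470468 counts. Albumin (Alb) took 6.56% to 8.85% of them. NcoR1ΔHep 1 stood apart in sex-linked transcripts, with 17138 counts of Xist against 6 to 18 in the other 5 libraries, and its 4 measured Y-linked genes summed to 0.534 CPM (counts scaled to library size) against 113 to 271 CPM. By these transcripts NcoR1ΔHep 1 is of female type and the other 5 libraries are of male type, so sex is not balanced between the genotypes. For some named cell death genes, leaving out NcoR1ΔHep 1 or another library moved the fold change by over 1.5 times. The value without that library, or the range over single omissions, is then given beside the fold change or with the limits at the end. No such values are given for single cell type markers. Ncor1 was at 5.34, 6.63 and 4.93 FPKM in NcoR1ΔHep 1, 2 and 3, against 6.78, 6.70 and 7.72 FPKM in flox 1, 2 and 3. FPKM is the count scaled by gene length and library total. The edgeR log2 fold change of Ncor1, NcoR1ΔHep over flox, was -0.31 (SE 0.21, adjusted p = 0.931), and an exact two-sided permutation test of FPKM gave p = 0.1, the smallest possible with 3 against 3. The Ncor1 groups were apart only in FPKM, and they overlapped with edgeR's TMM scaling. Gene totals do not show the loss of single exons, so the genotypes rest on the labels.

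The 250 bases before the annotated start are shown for the 3 members with the smallest p-values, Bmf, Casp12 and Ripk1 (RefSeq, build GRCm38.p6). For Bmf the most upstream of its 3 listed starts was taken, the one of the 3 whose window holds a motif match, at chr2:118549687-118549936 on the minus strand. The Casp12 stretch lies at chr9:5345226-5345475 and the Ripk1 stretch at chr13:34002113-34002362, both on the plus strand. The window of another listed Ripk1 start, at chr13:34002624-34002873, holds no match and is not shown. Capitals mark AGGTCA, the half-site read by many nuclear receptors, the factors that recruit NcoR1.
Bmf: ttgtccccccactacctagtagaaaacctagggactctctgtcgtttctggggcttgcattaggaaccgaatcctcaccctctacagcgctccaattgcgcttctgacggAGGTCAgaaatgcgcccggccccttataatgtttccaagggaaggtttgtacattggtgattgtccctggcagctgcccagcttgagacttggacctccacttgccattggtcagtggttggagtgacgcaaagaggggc
Casp12: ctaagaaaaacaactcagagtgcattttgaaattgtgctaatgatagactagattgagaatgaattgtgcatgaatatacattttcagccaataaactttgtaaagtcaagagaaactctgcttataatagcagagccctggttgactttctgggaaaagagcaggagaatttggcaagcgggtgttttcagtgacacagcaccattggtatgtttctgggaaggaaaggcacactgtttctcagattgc
Ripk1: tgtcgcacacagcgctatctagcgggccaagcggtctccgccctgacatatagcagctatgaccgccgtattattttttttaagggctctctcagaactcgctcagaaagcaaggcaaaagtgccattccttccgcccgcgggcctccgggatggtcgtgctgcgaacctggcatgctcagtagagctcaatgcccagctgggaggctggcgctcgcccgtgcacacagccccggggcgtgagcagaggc
Bmf held 1 match, which begins at position -140 from its start, and the stretches of Casp12 and Ripk1 held none. On either strand, 3 of the 34 members with a promoter entry (8.82%) held AGGTCA, namely Bmf, Bcl2l1 and Bcl2l2, against 15.8% of the 27025 genes with a promoter entry.

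Since the series names NF-kB p65, a form of the NF-kB site, GGG and TTTCC with any 2 bases between them, was searched in the same way. It was present in 4 of the 34 members (11.8%), against 1.65% of the 27025 genes with a promoter entry. These stretches of 30 bases are shown with the match in capitals, and the first 3 carry it on the reverse strand. Casp4 held a second match, which is not shown.
Bcl2l1: tacgcctctcGGAAAAACCCgggagtggtc
Mcl1: ccagccctccGGAAACGCCCgcccctttcc
Bbc3: ctggctgccgGGAAACCCCCcgcgccgagg
Casp4: atgagttacaGGGGATTTCCccacagcagt
The Bcl2l1 stretch is at chr2:152830916-152830945 (minus strand), that of Mcl1 at chr3:95658683-95658712, that of Bbc3 at chr7:16309437-16309466 and that of Casp4 at chr9:5308746-5308775 (plus strand). For Mcl1 and Bbc3 the first 20 bases after the RefSeq start do not lie in a GENCODE M21 transcript of the gene, so those starts are less certain. A match is a string of letters, and no binding was measured. None of these 4 genes was among the 6 members with the smallest p-values, and their levels are given with their roles.

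By mean FPKM over the 6 libraries, 6 members were at 10 or more, 21 between 1 and 10, and 11 below 1. The median was 2.35 FPKM, against 2.70 FPKM for all tested genes. The most abundant were Cycs (cytochrome c), Tnfrsf1a (TNF receptor 1), Casp6, Bax, Mcl1 and Gsdmd. Among the least abundant were Nlrp3, Pmaip1, Bcl2 and Tnfrsf10b, the receptor for TRAIL. Order between genes is approximate, because the gene lengths behind the deposited FPKM differed from the exon lengths of GENCODE M21. They lay within 2-fold of each other for 34 members. Mcl1 (8725 against 3418 bases) and Xiap (27375 against 9469) were scaled by more than the annotated length, and Casp6 (1475 against 5584) and Casp4 (1489 against 3710) by less. Comparisons of one gene between libraries do not depend on length.

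**Figure D1:**
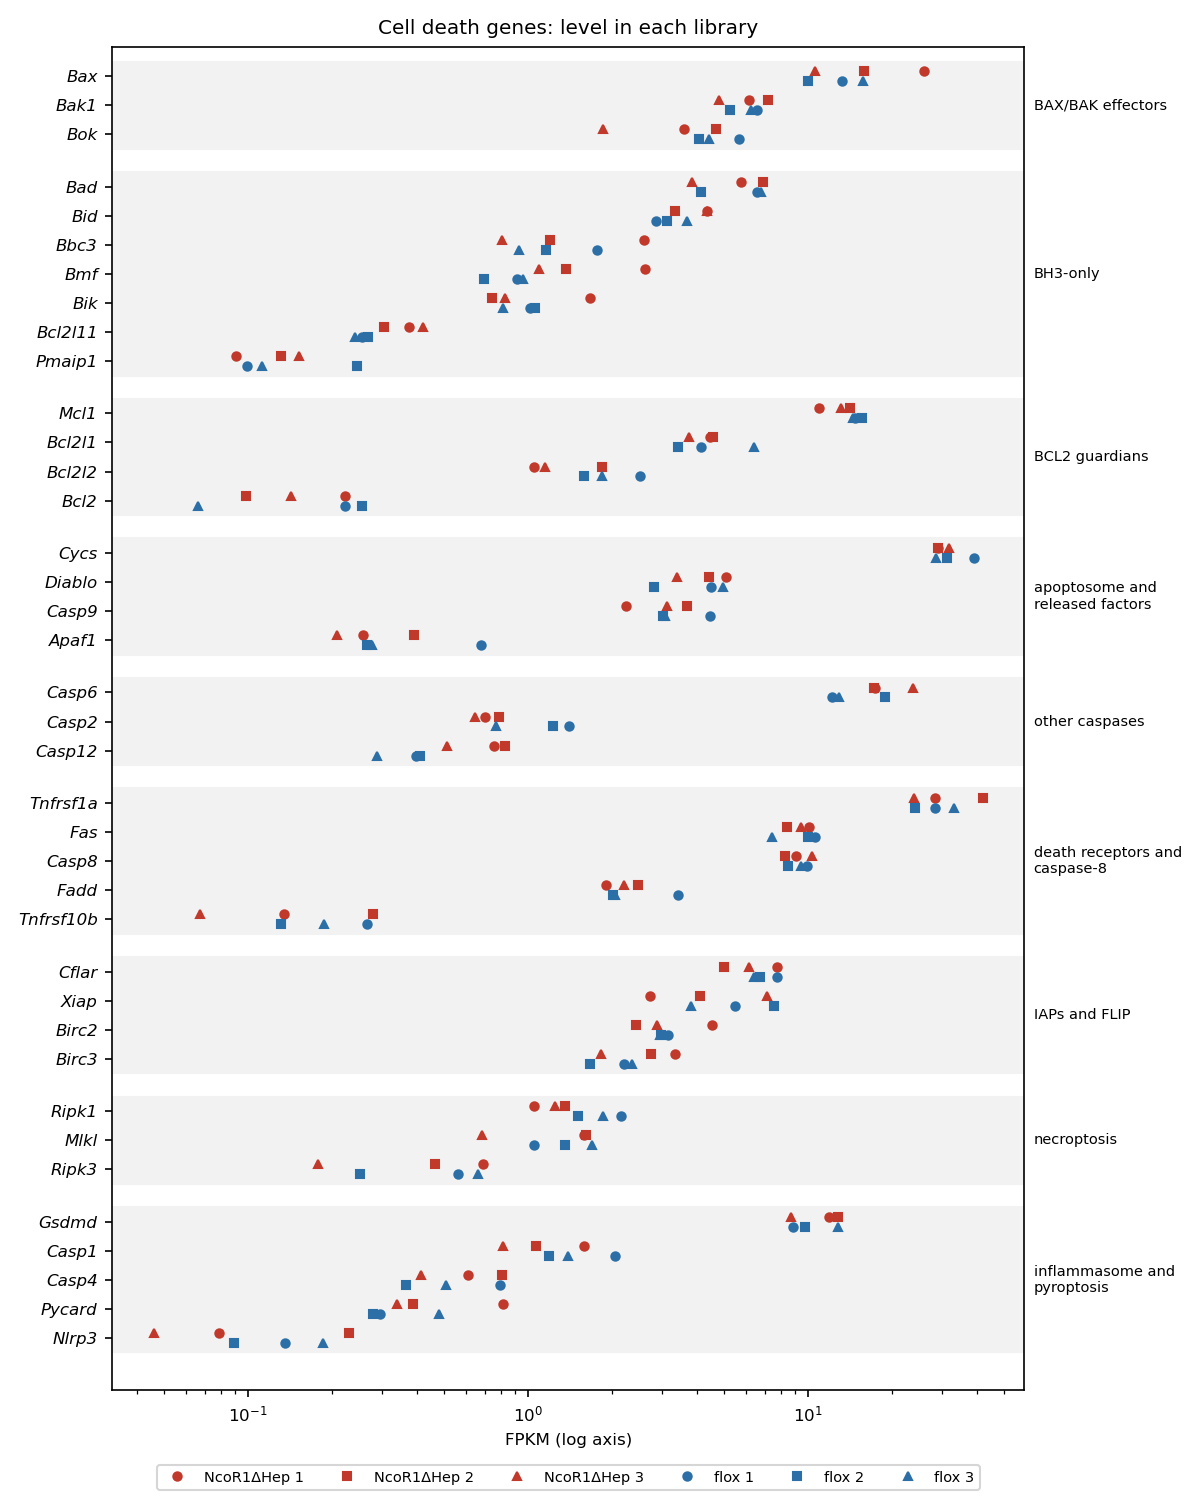
FPKM (log axis) of the 38 cell death genes in each library, grouped by role, with the 3 NcoR1ΔHep libraries in red above the 3 flox libraries in blue. The 2 genotypes overlap for most genes, and levels run from 0.046 FPKM (Nlrp3 in NcoR1ΔHep 3) to 42.1 FPKM (Tnfrsf1a in NcoR1ΔHep 2).

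No cell death gene passed the test between genotypes. By edgeR's quasi-likelihood test with adjustment over all 13205 genes, 0 of 38 members had an adjusted p under 0.05 (background 0%), and DESeq2 also called 0 of 38 (background 0.0246%). At an unadjusted edgeR p under 0.05 there were 3 of 38, Bmf and Casp12 with higher and Ripk1 with lower values in NcoR1ΔHep. The background at that level was 3.35% of all tested genes, 1.43% in the higher and 1.92% in the lower direction. Of the 38, 18 had a log2 fold change above 0 and 20 below 0, and 53.5% of all tested genes were above 0. Without NcoR1ΔHep 1 the members with an unadjusted p under 0.05 were 2, Bmf and Casp12, against 2.43% of tested genes. The median over members was -0.08, against 0.03 over all tested genes, and without NcoR1ΔHep 1 it was 0.01 for the members and 0.02 for all. The 95% interval lay within a 2-fold difference either way for 17 members (44.7%) and for 49.1% of tested genes, so for the other 21 members a 2-fold difference was within the interval.

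**Figure D2:**
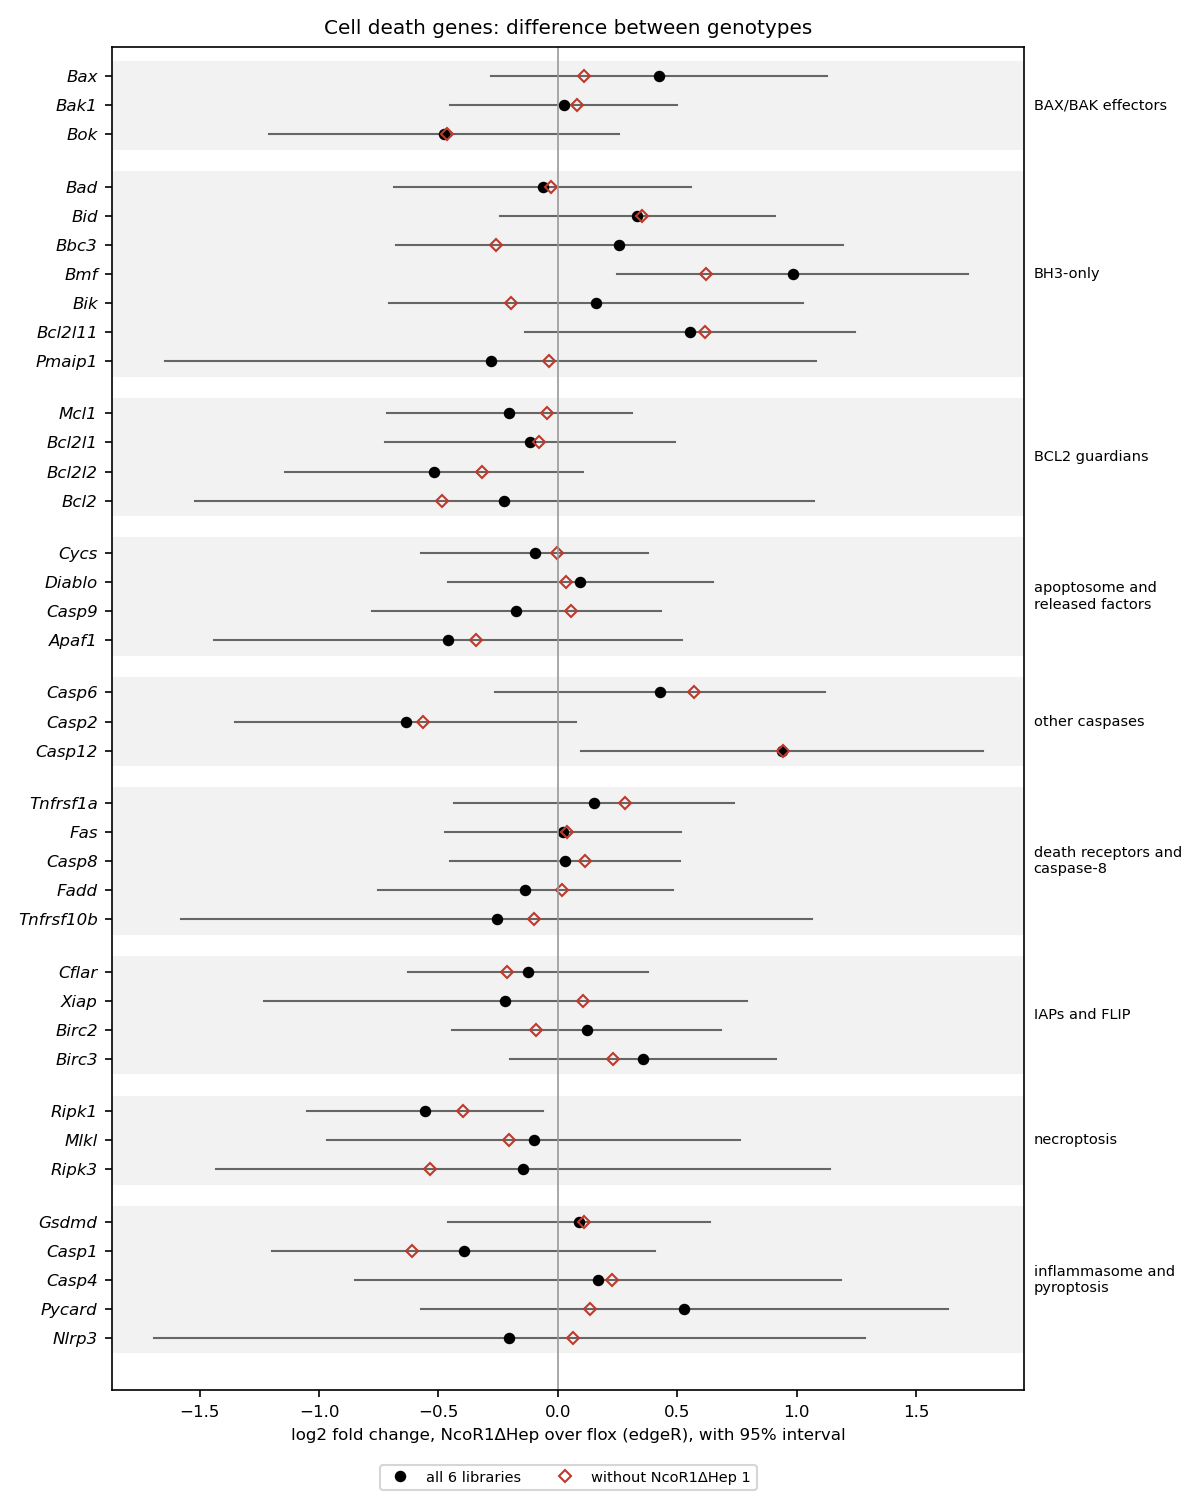
Log2 fold change (NcoR1ΔHep over flox, edgeR) of each cell death gene with its 95% interval in black, and the value without the library NcoR1ΔHep 1 as red diamonds. The intervals of Bmf, Casp12 and Ripk1 exclude 0 before adjustment, and those of the other 35 members include it.

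The BH3-only gene with the clearest difference was Bmf, whose product is released from the cytoskeleton to neutralise BCL2 guardians. Bmf was at 2.62, 1.37 and 1.10 FPKM in NcoR1ΔHep 1, 2 and 3, against 0.909, 0.698 and 0.958 FPKM in flox 1, 2 and 3. Each NcoR1ΔHep library lay above each flox library, and NcoR1ΔHep 1 was by far the highest. The log2 fold change was 0.98 (SE 0.32, 95% interval 0.25 to 1.72, edgeR adjusted p = 0.931), and 0.62 without NcoR1ΔHep 1. Bcl2l11, which encodes BIM, a BH3-only protein that engages all guardians, measured 0.375, 0.306 and 0.422 FPKM in NcoR1ΔHep against 0.256, 0.269 and 0.241 FPKM in flox. These groups did not overlap either. The counts were low, 114 to 157 in NcoR1ΔHep and 89 to 103 in flox, and the log2 fold change was 0.55 (SE 0.30, interval -0.14 to 1.24, edgeR adjusted p = 0.931), and 0.35 without NcoR1ΔHep 3.

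Of the 7 BH3-only genes, 5 had fitted values above 0, and 3 without NcoR1ΔHep 1. Among the 5 other than Bmf and Bcl2l11 the groups overlapped. Bid, whose product links caspase-8 to mitochondria, was at 4.36, 3.35 and 4.35 FPKM in NcoR1ΔHep against 2.86, 3.14 and 3.69 FPKM in flox (log2 fold change 0.33, SE 0.25, and 0.18 without NcoR1ΔHep 3 or 0.21 without flox 1). Bad, a BH3-only protein controlled by growth factor kinases, had the highest mean of the role, with 5.74, 6.93 and 3.86 FPKM in NcoR1ΔHep and 6.58, 4.14 and 6.78 FPKM in flox. Bbc3, which encodes the p53 target PUMA, reached 2.59 FPKM in NcoR1ΔHep 1 but measured 1.20 and 0.810 FPKM in the other NcoR1ΔHep livers and 0.925 to 1.77 FPKM in flox. Bik followed the same pattern, with 1.66 FPKM in NcoR1ΔHep 1 and 0.744 to 1.06 FPKM elsewhere. For Bmf, Bbc3 and Bik the highest of all 6 values was thus that of NcoR1ΔHep 1. Pmaip1, which encodes NOXA, was near the detection limit at 0.0905, 0.131 and 0.151 FPKM (9 to 15 counts) in NcoR1ΔHep, with 0.0992, 0.245 and 0.112 FPKM (10 to 25 counts) in flox.

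**Figure D3:**
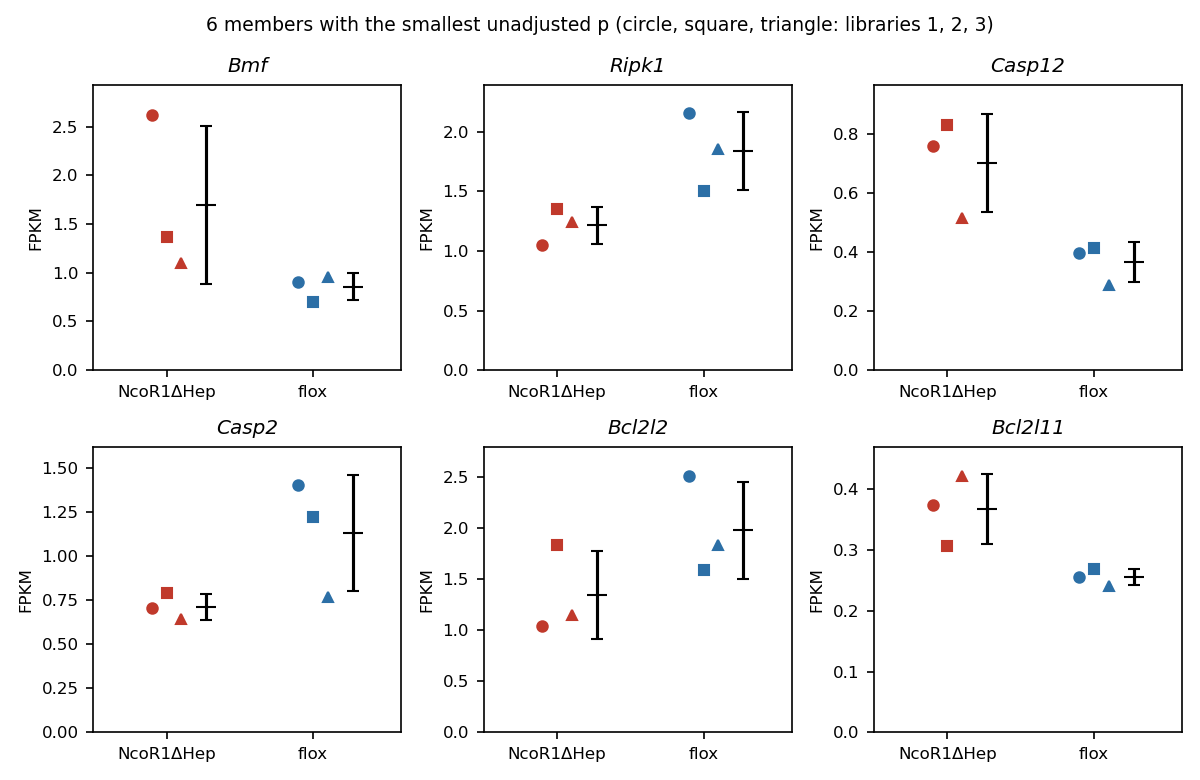
FPKM of the 6 cell death genes with the smallest unadjusted p, by library (symbols) with mean and SD of 3 libraries (black). Bmf, Casp12 and Bcl2l11 are higher and Ripk1 is lower in all 3 NcoR1ΔHep libraries, while Casp2 and Bcl2l2 overlap.

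All 4 guardian genes had negative log2 fold changes, from -0.12 to -0.52, and none passed the test. The sign of Bcl2l1 and Bcl2 turned in at least 1 of the 14 alternatives. Mcl1, whose short-lived product protects hepatocytes, was at 10.96, 14.1 and 13.1 FPKM in NcoR1ΔHep against 14.7, 15.6 and 14.4 FPKM in flox. In FPKM the groups did not overlap, but with edgeR's TMM scaling they did, and the log2 fold change was -0.20 (SE 0.22, edgeR adjusted p = 0.931). It was -0.045 without NcoR1ΔHep 1, -0.31 without NcoR1ΔHep 3 and -0.12 without flox 2. Bcl2l2, which encodes BCL-W, was at 1.05, 1.84 and 1.15 FPKM in NcoR1ΔHep and 2.51, 1.59 and 1.83 FPKM in flox (log2 fold change -0.52, SE 0.27), with -0.32 without NcoR1ΔHep 1 and -0.79 without NcoR1ΔHep 2. Counts of members that share exon bases with another annotated gene are uncertain, since the strand setting of the counting is not given. The share was 13.3% for Bcl2l2 (Gm20521), 12.2% for Bax (Gm45808) and 19.3% for Diablo (Gm49027) on the same strand. On the opposite strand it was 25.5% for Bak1 (Ggnbp1), 21.5% for Diablo (B3gnt4), 20.5% for Bad (Gpr137), 17.7% for Bid (Bcl2l13) and 12.8% for Pycard (Gm45205). For Bcl2, Fadd, Casp9 and Ripk1 no single gene shared more than 6.1%. Bcl2l1, which encodes BCL-XL, was at 4.46, 4.57 and 3.74 FPKM in NcoR1ΔHep and 4.14, 3.43 and 6.42 FPKM in flox. Bcl2 itself was scarce and among the most variable members, at 0.222, 0.0985 and 0.142 FPKM in NcoR1ΔHep and 0.222, 0.255 and 0.0662 FPKM in flox.

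Set against each other within a library, the summed FPKM of the 7 BH3-only genes was 1.05, 0.679 and 0.635 times that of the 4 guardians in NcoR1ΔHep 1, 2 and 3. In flox 1, 2 and 3 it was 0.626, 0.512 and 0.594 times. Such a ratio does not depend on how libraries are scaled. The groups did not overlap, by a narrow margin between NcoR1ΔHep 3 and flox 1, and they overlapped when Bmf was left out (0.575 to 0.888 against 0.479 to 0.583) or when GENCODE lengths were used (0.244 to 0.479 against 0.204 to 0.255). The mean log2 difference was 0.41, and 0.19 without NcoR1ΔHep 1. This ratio was formed after the values were seen, and no test was made of it. The 8 genes against death (guardians, Cflar and the IAPs) summed to 34.9 to 36.1 FPKM in NcoR1ΔHep and 38.3 to 40.2 FPKM in flox. With TMM factors the sums were 32.7, 34.5 and 40.1 against 36.1, 42.7 and 38.9, and the groups overlapped.

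**Figure D4:**
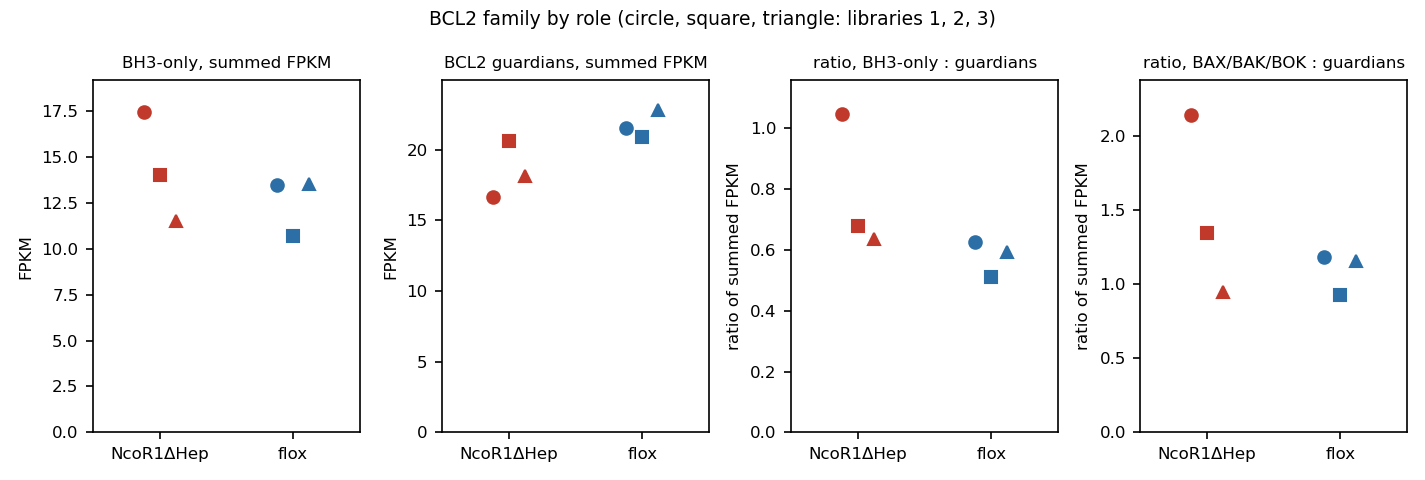
Summed FPKM of BH3-only and guardian genes and their ratio, and the ratio of Bax, Bak1 and Bok to the guardians, in each library. The BH3-only ratio is 0.635 to 1.05 in NcoR1ΔHep and 0.512 to 0.626 in flox, and the effector ratio overlaps (0.949 to 2.14 against 0.923 to 1.18).

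Of the membrane-permeabilising effectors, Bax was at 25.9, 15.8 and 10.6 FPKM in NcoR1ΔHep 1, 2 and 3 and 13.2, 9.98 and 15.7 FPKM in flox 1, 2 and 3. Only NcoR1ΔHep 1 lay clearly above the others, and the log2 fold change of 0.42 (SE 0.31) was 0.11 without it. Bak1 had almost equal means, 6.04 ± 1.21 FPKM in NcoR1ΔHep and 6.01 ± 0.687 FPKM in flox (SD, n = 3 each), and its 95% interval ran from -0.45 to 0.50 on the log2 scale. Bok, a BAX-like protein that acts without the guardians, was at 3.60, 4.68 and 1.86 FPKM in NcoR1ΔHep and 5.68, 4.07 and 4.44 FPKM in flox (log2 fold change -0.48, SE 0.32), with overlap. Without NcoR1ΔHep 3 the Bok value was -0.23, and without NcoR1ΔHep 2 it was -0.79.

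Downstream of mitochondria the groups overlapped for all 4 genes. Cycs was at 29.1, 29.2 and 31.9 FPKM in NcoR1ΔHep and 39.2, 31.2 and 28.6 FPKM in flox (log2 fold change -0.10, 95% interval -0.57 to 0.38). Leaving out single libraries gave -0.227 (without NcoR1ΔHep 3) to -0.005 (without NcoR1ΔHep 1). Processed pseudogenes of Cycs are common in mammalian genomes, so its count may be shared with copies. Apaf1, the scaffold of the apoptosome, was the scarcest of this role, at 0.258, 0.391 and 0.207 FPKM in NcoR1ΔHep and 0.677, 0.267 and 0.278 FPKM in flox, where flox 1 stood alone. Its 95% interval, -1.44 to 0.52 on the log2 scale, includes a 2-fold lower level. Casp9, the initiator caspase it activates, averaged 3.02 ± 0.733 FPKM in NcoR1ΔHep and 3.52 ± 0.823 FPKM in flox, and Diablo, which relieves inhibition by XIAP, 4.31 ± 0.843 and 4.10 ± 1.13 FPKM (SD, n = 3 each).

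Among the caspases outside these complexes, Casp12 and Casp2 were scarce and Casp6 abundant. Casp12, a caspase of the inflammatory cluster known for its place at the endoplasmic reticulum in mouse, was at 0.757, 0.830 and 0.513 FPKM in NcoR1ΔHep against 0.398, 0.412 and 0.289 FPKM in flox. The groups did not overlap, on 52 to 84 counts in NcoR1ΔHep and 29 to 43 in flox. Its log2 fold change was 0.94 (SE 0.37, 95% interval 0.10 to 1.78, edgeR adjusted p = 0.931), and 0.94 without NcoR1ΔHep 1. Casp12 follows Casp1 and Casp4 directly on chromosome 9, and these neighbours overlapped between the groups. Casp2, which responds to DNA damage and aneuploidy, was at 0.703, 0.790 and 0.645 FPKM in NcoR1ΔHep and 1.40, 1.22 and 0.766 FPKM in flox (log2 fold change -0.64, SE 0.31). Casp6, an executioner caspase, was at 17.4, 17.1 and 23.6 FPKM in NcoR1ΔHep and 12.2, 18.8 and 12.9 FPKM in flox (log2 fold change 0.43, SE 0.30), with overlap through flox 2. The Casp6 value was 0.71 without flox 2, 0.27 without flox 1 and 0.16 without NcoR1ΔHep 3.

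The 5 genes of the death receptor pathway had log2 fold changes between -0.26 and 0.15. Fas had means of 9.32 ± 0.834 FPKM in NcoR1ΔHep and 9.33 ± 1.70 FPKM in flox, and Casp8 9.23 ± 1.06 and 9.26 ± 0.720 FPKM (SD, n = 3 each). Their 95% intervals, -0.47 to 0.52 for Fas and -0.45 to 0.51 for Casp8, exclude a 2-fold difference. Tnfrsf1a was at 28.4, 42.1 and 23.9 FPKM in NcoR1ΔHep and 28.4, 24.2 and 33.2 FPKM in flox (log2 fold change 0.15, SE 0.26). Fadd, the adaptor between FAS and caspase-8, was at 1.90 to 2.48 FPKM in NcoR1ΔHep and 2.02 to 3.44 FPKM in flox. Tnfrsf10b was at 0.134, 0.278 and 0.0674 FPKM (8 to 33 counts) in NcoR1ΔHep and 0.265, 0.131 and 0.187 FPKM (16 to 32 counts) in flox. Its 95% interval, -1.58 to 1.06 on the log2 scale, includes a 2-fold difference either way.

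The inhibitors of this route also overlapped. Cflar, which encodes the caspase-8 decoy FLIP, was at 7.75, 4.99 and 6.14 FPKM in NcoR1ΔHep and 7.72, 6.74 and 6.43 FPKM in flox. Birc3, which encodes cIAP2 and is a known NF-kB target, was at 3.34, 2.76 and 1.83 FPKM in NcoR1ΔHep and 2.21, 1.66 and 2.35 FPKM in flox (log2 fold change 0.36, SE 0.24, and 0.23 without NcoR1ΔHep 1). Birc2, its neighbour on chromosome 9 that encodes cIAP1, reached 4.53 FPKM in NcoR1ΔHep 1, and the other 5 libraries held 2.42 to 3.17 FPKM. Xiap, the inhibitor that binds caspase-9 directly, ran from 2.72 to 7.10 FPKM in NcoR1ΔHep and from 3.81 to 7.53 FPKM in flox.

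In the necroptosis pathway Ripk1, the kinase and scaffold that joins TNF receptor signalling to survival or death, was at 1.05, 1.35 and 1.25 FPKM in NcoR1ΔHep against 2.15, 1.51 and 1.86 FPKM in flox. The highest NcoR1ΔHep value stayed under the lowest flox value, in FPKM and with TMM scaling. The log2 fold change was -0.56 (SE 0.22, 95% interval -1.05 to -0.06, edgeR adjusted p = 0.931), and -0.40 without NcoR1ΔHep 1. Ripk3, the kinase that activates MLKL, was at 0.693, 0.464 and 0.177 FPKM in NcoR1ΔHep and 0.563, 0.251 and 0.661 FPKM in flox. Mlkl, which encodes the membrane-disrupting pseudokinase, was at 1.58, 1.61 and 0.685 FPKM in NcoR1ΔHep and 1.05, 1.36 and 1.69 FPKM in flox. Their log2 fold changes, -0.15 (SE 0.56) for Ripk3 and -0.10 (SE 0.38) for Mlkl, turned positive when NcoR1ΔHep 3 or flox 3 was left out.

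Exact two-sided permutation tests of FPKM gave p = 0.1 for each of Bmf, Casp12 and Ripk1, the smallest that 3 libraries against 3 can give. These genes were picked by their edgeR p-values in the same data. Groups of 3 that do not overlap always give this value, so it adds nothing to the lack of overlap. In FPKM the groups did not overlap for 5 of the 38 members, 3 higher (Bmf, Bcl2l11, Casp12) and 2 lower (Ripk1, Mcl1). The background of genes whose groups did not overlap was 7.56% of those tested, 2.61% higher and 4.95% lower.

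Of the pyroptosis genes, Gsdmd was well expressed, at 11.9, 12.8 and 8.67 FPKM in NcoR1ΔHep and 8.85, 9.76 and 12.8 FPKM in flox (log2 fold change 0.09, SE 0.24). The sensor gene Nlrp3 and the protease genes Casp1 and Casp4 were at lower levels. Nlrp3 was the scarcest member, at 0.0786, 0.230 and 0.0460 FPKM (7 to 35 counts) in NcoR1ΔHep and 0.136, 0.0893 and 0.186 FPKM (14 to 28 counts) in flox. Its log2 fold change of -0.20 (SE 0.65) was 0.06 without NcoR1ΔHep 1. Casp1 was at 1.59, 1.06 and 0.815 FPKM in NcoR1ΔHep and 2.04, 1.19 and 1.39 FPKM in flox (log2 fold change -0.39, SE 0.35, with -0.61 without NcoR1ΔHep 1, -0.26 without NcoR1ΔHep 3 and -0.22 without flox 1). Casp4 was at 0.414 to 0.810 FPKM in NcoR1ΔHep and 0.367 to 0.796 FPKM in flox. Pycard, which encodes the adaptor ASC, reached 0.812 FPKM in NcoR1ΔHep 1, and the other 5 libraries held 0.280 to 0.481 FPKM.

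Several of these genes are also expressed by immune and vascular cells, and the marker levels of those cells are given beside them. In bulk tissue, fewer cells of a type and less RNA per cell cannot be told apart. The 10 Kupffer cell markers summed to 225, 335 and 131 FPKM in NcoR1ΔHep 1, 2 and 3 and to 304, 198 and 313 FPKM in flox 1, 2 and 3. Of these markers 8 of 10 had lower fitted values, with a median log2 fold change of -0.32, and -0.19 without NcoR1ΔHep 1. The 5 pyroptosis members summed to 14.95, 15.3 and 10.3 FPKM in NcoR1ΔHep and 12.1, 11.7 and 15.3 FPKM in flox. NcoR1ΔHep 3 was lowest in both sums and also in the necroptosis sum, at 2.11 FPKM against 3.11 to 4.21 FPKM in the other 5 libraries. These sums were not divided by TMM factors, and NcoR1ΔHep 3 had the lowest factor, 0.901 against 0.933 to 1.112 elsewhere. The place of NcoR1ΔHep 3 as lowest in the pyroptosis sum depends on that scaling.

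Neutrophil markers summed to 7.04 to 12.6 FPKM in NcoR1ΔHep and 3.52 to 23.6 FPKM in flox, and 2 of the 8, Ly6g and Cxcr2, stayed under 0.1 FPKM in every library. The 10 sinusoidal endothelial markers summed to 104, 55.9 and 41.9 FPKM in NcoR1ΔHep 1, 2 and 3. In flox 1, 2 and 3 they summed to 164, 61.4 and 96.2 FPKM. Flox 1 was the highest library for each of these markers, and all 10 had lower fitted values in NcoR1ΔHep. Their median log2 fold change was -0.63, and -1.04 without NcoR1ΔHep 1, while the median without flox 1 is not given here. By edgeR 0 of the 10 passed after adjustment, while 1 (Kdr, log2 fold change -1.01) had an unadjusted p under 0.05, and 6 without NcoR1ΔHep 1. The background was 3.35% of all tested genes, and 2.43% without NcoR1ΔHep 1. Kdr was at 3.07, 2.15 and 1.91 FPKM in NcoR1ΔHep 1, 2 and 3 and 8.67, 2.84 and 3.41 FPKM in flox 1, 2 and 3. Stellate cell markers (8 of 8 with higher fitted values, 6 of 8 without NcoR1ΔHep 1) summed to 132 to 249 FPKM in NcoR1ΔHep and 117 to 125 FPKM in flox, without overlap. Dcn (mean 92.8 FPKM in NcoR1ΔHep and 70.6 FPKM in flox) and Ecm1 (62.1 and 30.2 FPKM) made up most of the stellate sums. The groups overlapped for every single stellate marker, and Ecm1 was at 113 FPKM in NcoR1ΔHep 1. T and NK cell markers summed to 1.73 to 4.32 FPKM in NcoR1ΔHep and 2.29 to 3.50 FPKM in flox, and B cell markers to 1.26 to 2.97 and 1.95 to 3.27 FPKM. Cholangiocyte markers summed to 22.1 to 103 FPKM in NcoR1ΔHep and 25.2 to 33.8 FPKM in flox. Most of that sum was Spp1 (mean 51.2 FPKM in NcoR1ΔHep and 26.7 FPKM in flox). Spp1 was at 33.7, 99.03 and 20.99 FPKM in NcoR1ΔHep 1, 2 and 3. In flox 1, 2 and 3 it was at 23.33, 23.99 and 32.72 FPKM. The higher Spp1 mean thus came mostly from NcoR1ΔHep 2, and NcoR1ΔHep 3 lay below every flox library. Among the 4 tested markers 3 had higher fitted values (median 0.67), of which Epcam (1.23) had an unadjusted edgeR p under 0.05. The 8 hepatocyte markers summed to 59050 to 64290 FPKM in NcoR1ΔHep and 58950 to 64730 FPKM in flox. The part of these cells in the values of Bmf, Casp12, Ripk1 and the pyroptosis genes was not tested.

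**Figure D5:**
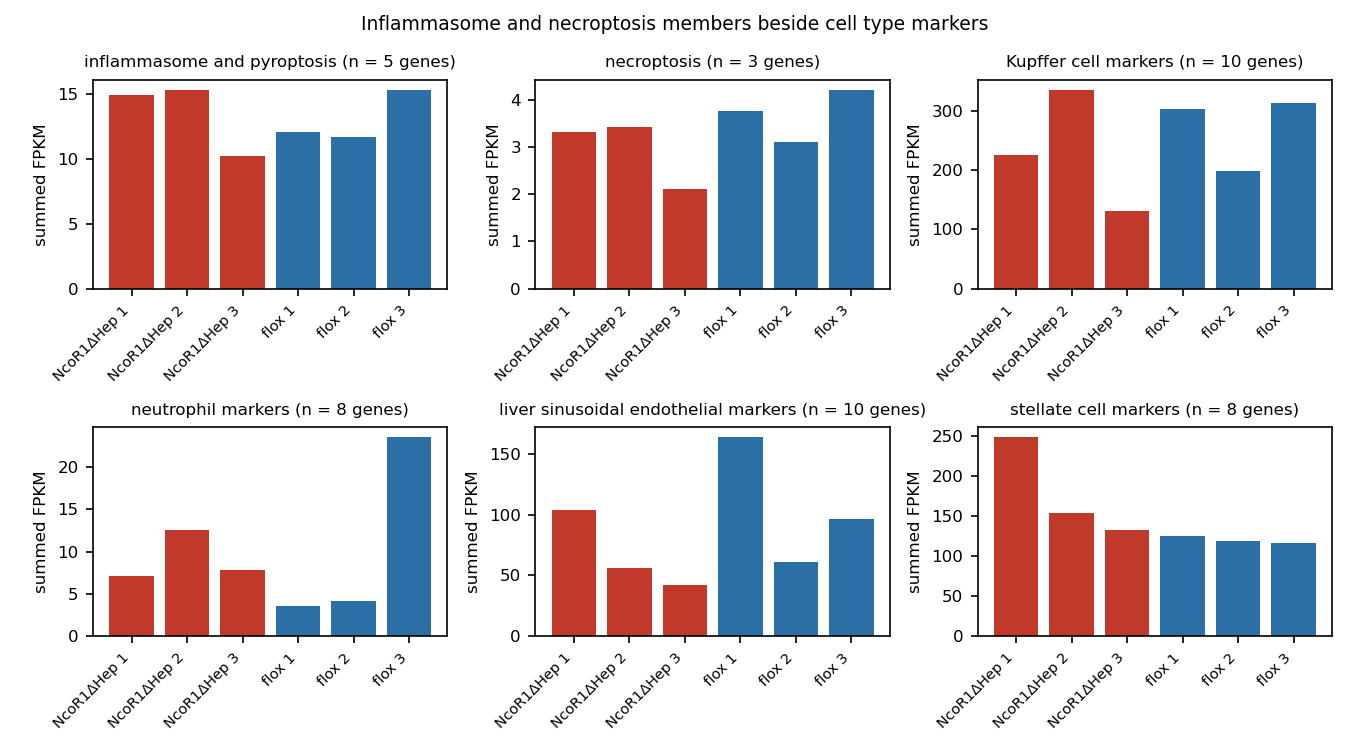
Summed FPKM in each library of the 5 pyroptosis and 3 necroptosis members and of 4 lists of cell type markers. In FPKM without TMM factors, NcoR1ΔHep 3 is lowest for pyroptosis, necroptosis, Kupffer cell and endothelial genes. The stellate cell sums of all 3 NcoR1ΔHep libraries exceed those of flox.

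A pattern that crossed the genotypes involved NcoR1ΔHep 2 and flox 3. For 6 of the 38 members (15.8%) these were the 2 libraries with the highest FPKM, namely Tnfrsf1a, Gsdmd, Mlkl, Nlrp3, Bcl2l1 and Bad, against 7.42% of all tested genes. The same 2 libraries held Saa1, an acute-phase gene chosen after its values were seen, at 2092 and 2427 FPKM, against 20.8 to 130 FPKM in the other 4. NcoR1ΔHep 3 and flox 2 were the 2 lowest libraries for 10 members (26.3%), among them Bax, Diablo and Ripk3, close to the 28.1% of all tested genes. The pattern was described after the values were seen and has no test.

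Genes of the same pathways outside the 38 gave a like picture. Of 57 tested, 0 passed by edgeR or by DESeq2, and 3 had an unadjusted edgeR p under 0.05, 2 higher and 1 lower, near the background of 3.35%. Among other apoptosis genes (17 of 26 with higher fitted values, median log2 fold change 0.06), Parp1, a DNA repair enzyme cleaved by executioner caspases, was at 6.96, 8.61 and 6.38 FPKM in NcoR1ΔHep and 11.3, 9.25 and 8.30 FPKM in flox (log2 fold change -0.37, SE 0.20).

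Among 18 genes that control RIPK1 or necroptosis, 12 had lower fitted values and the median log2 fold change was -0.12. Without NcoR1ΔHep 1, 9 were higher and 9 lower, and the median was 0.01. The 2 with the smallest p are partners that hold RIPK1 in its survival mode. Tab2 was at 2.82, 4.31 and 4.09 FPKM in NcoR1ΔHep and 6.99, 6.10 and 4.47 FPKM in flox (log2 fold change -0.61, SE 0.27, and -0.38 without NcoR1ΔHep 1). Map3k7, which encodes the kinase TAK1, was at 3.997, 4.32 and 4.79 FPKM in NcoR1ΔHep and 6.97, 5.79 and 4.94 FPKM in flox (log2 fold change -0.39, SE 0.22). For both genes the groups did not overlap in FPKM, and for Map3k7 they overlapped with TMM scaling.

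Among 13 inflammasome genes, 6 had higher fitted values and the median log2 fold change was -0.01. Without NcoR1ΔHep 1, 4 were higher and the median was -0.27. Il18, a cytokine processed by caspase-1, was at 8.27, 4.83 and 5.32 FPKM in NcoR1ΔHep and 3.69, 4.19 and 4.02 FPKM in flox (log2 fold change 0.63, SE 0.25, and 0.45 without NcoR1ΔHep 1). Nlrp12, a NOD-like receptor known to restrain NF-kB signalling, was at 2.39, 4.11 and 4.99 FPKM in NcoR1ΔHep and 8.28, 7.40 and 5.04 FPKM in flox (log2 fold change -0.79, SE 0.35, and -0.49 without NcoR1ΔHep 1). With TMM scaling the Nlrp12 groups overlapped, and neither gene passed (edgeR adjusted p = 0.931 for both).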

How the data were processed

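The authors deposited whole-number counts per gene symbol and FPKM for 6 libraries, per the file headers. Each deposited FPKM was a count divided by a gene length and the library total (length whole within 0.01 in 100% of 12656 genes checked). Per the labels' protocols, RNA was column-extracted and a SMARTer kit for mRNA gave the libraries. The submitters' processing notes name GRCm38, mm10 and hg38 without their use. For the aligner, the counter and the strand, the entry is: not given in the sources used here.

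Counts were filtered with filterByExpr (minimum count 10, minimum total 15), scaled by TMM and tested with edgeR 4.0.16 (R 4.3.3, quasi-likelihood, two-sided, Benjamini-Hochberg over all genes, threshold 0.05), after trials on simulated data. Standard errors come from the F statistic. The replicate number was no term in the fit. Alternatives were RLE factors, DESeq2 1.42.0, 2 other count filters, limma 3.58.1 on log2 FPKM, a replicate block and leaving out each library. Members and lists were chosen with earlier results of these data known. Values by library are given for the 6 members with the smallest p, the highest and lowest of each role, the 3 most variable (Nlrp3, Bcl2, Ripk3), and Mlkl and Gsdmd. Of other pathway lists the 2 genes with the smallest p are named, except 1 that is not reported here. Genes beyond this rule (among them Bbc3, Bid, Bcl2l1, Casp1 and Birc2) were added after their values were seen. Of the other listed genes, 4 are not analysed here, since their symbols had no match. Exon overlaps come from GENCODE M21 and promoters from RefSeq.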

Additional observations from a re-analysis of the deposited data

How the results depend on the processing

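No member and no other cell death gene passed under any of the 14 alternatives. All tested genes gave 0 calls except with DESeq2, which called 5, none of them a member. Members at an unadjusted p under 0.05 numbered 3 in the main fit, where 443 of 13205 tested genes reached that level. They numbered 1 without flox 1 (105 of 13469 genes), 1 with the replicate block (175 of 13205) and 4 without NcoR1ΔHep 2 (770 of 13511). Without NcoR1ΔHep 1 (325 of 13391 genes), without flox 3 (743 of 13531) and with limma (309 to 592 genes) they numbered 2. In the other alternatives they numbered 3. The log2 fold changes of Bmf (0.50 to 1.16), Casp12 (0.31 to 1.09) and Ripk1 (-0.66 to -0.35) kept their sign in every alternative. These genes were picked for the smallest p and their groups did not overlap, so leaving out a single library could hardly turn the sign. The lowest sizes of Bmf, Casp12 and Ripk1 came with limma on log2(FPKM + 1), whose pseudocount shrinks low genes. Of all 38 members, 15 kept 1 sign throughout and 23 did not.

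The median over members was -0.01 with limma at either pseudocount (-0.007 and -0.008), where 31 members passed the filter, and ran from -0.09 to 0.09 when single libraries were left out (-0.091 to 0.089). On leaving out single libraries the log2 fold change ran from -0.10 to 0.29 for Tnfrsf1a (-0.102 to 0.291), from -0.54 to 0.19 for Ripk3 (-0.535 to 0.187), from -0.31 to 0.15 for Mlkl (-0.305 to 0.154), from -0.06 to 0.27 for Gsdmd (-0.063 to 0.269) and from -1.11 to 0.14 for Nlrp3 (-1.109 to 0.139). The cause was not tested.

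With the replicate number as a block, 0 of 38 members passed. Same-numbered libraries deviated from their group means with r = 0.019, -0.328 and -0.468. Pairs with unlike numbers ran from r = -0.239 (NcoR1ΔHep 1 with flox 2) to 0.556 (NcoR1ΔHep 3 with flox 2). Deviations around means of 3 libraries cannot decide whether a shared number marks a litter, day or batch. Genes under 1 FPKM often rest on few counts, which limits what 3 libraries a group can resolve.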
